A study of Mus musculus with 14 samples.

Results

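The 10 genes described here encode S100 proteins and were taken by their symbols from the 23284 genes listed in both tables of the series: S100a1, S100a4, S100a6, S100a8, S100a9, S100a10, S100a11, S100a13, S100a14 and S100a16. They were followed over 14 RNA-seq libraries. EpH4 cells, an epithelial line from the mouse mammary gland kept in 10% fetal bovine serum, and EpRas cells, their derivative transformed with H-Ras and kept in 4% serum, were left untreated or received 1 ng/ml TGF-β3 for 48 h, with 2 libraries for each of these 4 groups. In a further table, EpRas cells had received a negative control siRNA (siNC) or either of 2 siRNA pairs against both Etv4 and Etv5, which encode ETS family transcription factors, again with and without TGF-β for 48 h, with 1 library per condition. The set was selected on measured values, namely the lower S100a8 FPKM after this knockdown, so the siRNA values of the 10 genes are given as a description without a test. EpRas is 1 transformed derivative of 1 line, so Ras transformation, the line's later history and the serum concentration cannot be told apart.

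S100 proteins are small calcium-binding proteins with EF-hand domains that mostly act as dimers. Inside cells they bind partners such as annexins and non-muscle myosin when calcium rises, and several of them are released and act on receptors such as Tlr4 and Ager (RAGE). Most mouse S100 genes lie in a cluster on chromosome 3 and have long been studied in breast cancer, where individual members mark epithelial, mesenchymal or inflammatory states. Expression is given in FPKM, the fragments of a gene per kilobase of its exons scaled to the size of the library, which is a level per length, so that levels of different genes can be set side by side.

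In the authors' table on mm10, S100a1, S100a13, S100a14, S100a16, S100a4, S100a6, S100a8 and S100a9 lie in this order between chr3:90511034-90695691, a stretch of 184.658 kb that holds 12 genes, all of them S100 genes. The other 4 are S100a2, S100a3, S100a5 and S100a7a. S100a11 and S100a10 lie apart from these, between chr3:93520496-93564645, and 53 genes of the epidermal differentiation complex lie in between, of which 5 reached 5 FPKM in at least 1 untransfected library. S100a1 and S100a13 are transcribed away from each other, with 104 bp between the end of the one and the start of the other. S100a8 itself spans chr3:90669071-90670034, S100a13 spans chr3:90514435-90524581 and S100a4 spans chr3:90603770-90606045.

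Upstream sequences were taken from RefSeq on GRCm38.p6, whose table held a window for 8 of the 10 genes (S100a10 and S100a14 were not matched). Those of S100a8, S100a13 and S100a4 are printed because S100a8 and S100a13 were at least 2-fold lower under both siRNA pairs without TGF-β, and because S100a4 differed most between EpRas and EpH4 cells. Each line gives the 250 bases before the transcript start used in that table, 5′ to 3′ on the transcribed strand. For S100a13 this start is the one in the authors' table, while the RefSeq gene record begins upstream of it, at position 90514233, so that most of the window lies inside that record. Capitals mark each GGAA or, on the other strand, TTCC, the core that ETS family factors recognise.
S100a8, chr3:90668821-90669070, + strand: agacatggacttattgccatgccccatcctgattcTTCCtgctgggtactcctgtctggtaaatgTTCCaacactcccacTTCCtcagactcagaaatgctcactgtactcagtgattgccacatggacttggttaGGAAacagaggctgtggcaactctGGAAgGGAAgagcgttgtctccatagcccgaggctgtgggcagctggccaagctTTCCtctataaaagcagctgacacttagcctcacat
S100a13, chr3:90514185-90514434, + strand: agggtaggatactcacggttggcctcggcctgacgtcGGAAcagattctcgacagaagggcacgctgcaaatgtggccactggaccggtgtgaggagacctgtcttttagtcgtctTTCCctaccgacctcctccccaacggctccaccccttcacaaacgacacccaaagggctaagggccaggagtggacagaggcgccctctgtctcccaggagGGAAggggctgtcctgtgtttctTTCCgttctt
S100a4, chr3:90603520-90603769, + strand: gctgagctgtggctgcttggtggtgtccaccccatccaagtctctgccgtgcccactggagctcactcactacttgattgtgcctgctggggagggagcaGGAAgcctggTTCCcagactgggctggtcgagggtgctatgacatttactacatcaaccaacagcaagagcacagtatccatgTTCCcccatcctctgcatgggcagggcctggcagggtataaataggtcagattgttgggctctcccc
The windows hold 7, 4 and 3 such matches, respectively, beside a median of 3 over all 32851 windows of the table, of which 93.4% hold at least 1. The last 104 bases of the S100a13 window are, on the opposite strand, also part of the S100a1 window, which holds 8 matches. The longer letters CCGGAAG, which overlap with GGAA, are in 6.91% of all windows and in none of those of the 8 genes. The AP-1 letters TGANTCA, read on both strands, are in 6.75% of all windows. They occur 2 times in the window of S100a11 and 1 time in 1 of the 2 windows listed for S100a16. A match of letters is a description of the sequence and was not tested as a binding site.

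The 10 genes spanned the whole range of expression. S100a6 was listed between 1689.9 and 12005 FPKM in the untransfected libraries and was the most highly expressed gene of the table in at least 1 of them (ranks 1 to 45 of 23284 genes). Its highest value, in the second untreated EpH4 library, came with a Cuffdiff interval from 0 to 27228 FPKM, so that this rank is uncertain. S100a10 (ranks 47 to 61) and S100a11 (ranks 133 to 224) were also among the most abundant mRNAs in every library of both lines. S100a16 lay between 31.8 and 91.2 FPKM, S100a13 between 12.9 and 38.3 FPKM, S100a1 between 8.64 and 34.5 FPKM and S100a14 between 1.46 and 25.3 FPKM. S100a8 did not exceed 1.47 FPKM, and S100a9 was listed at 0 in all 8 untransfected libraries. The 10 genes together made up 0.711 to 2.32% of all FPKM in the untransfected libraries and 0.906 to 1.61% in the siRNA libraries. The 2.32% was in the library with that S100a6 value. The first untreated EpRas library, with S100a6 at 9084 FPKM (Cuffdiff interval from 0 to 19385 FPKM), had 2.26%.

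**Figure D1:**
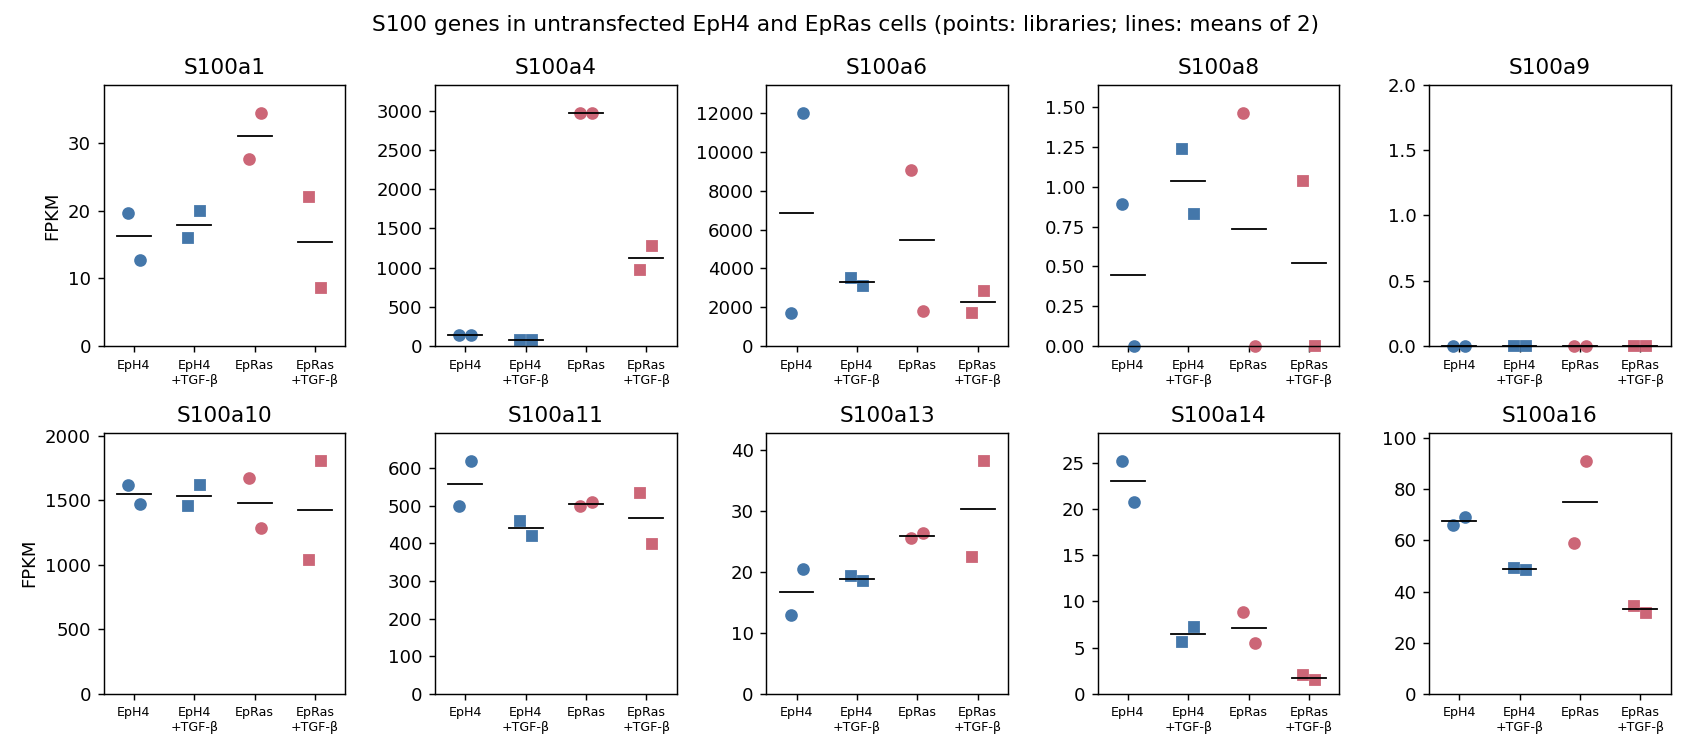
FPKM (linear axes from 0, one scale per gene) of the 10 S100 genes in untransfected EpH4 (blue) and EpRas (red) cells, without (circles) and with TGF-β (squares). Points are libraries and lines are the means of 2 libraries. S100a4 stands at 2970.4 and 2974 FPKM in the pair of EpRas libraries without treatment and at 138 FPKM or less in all EpH4 libraries, while the points of S100a6 lie far apart within the untreated groups.

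For S100a1, S100a8, S100a13 and S100a16, and for S100a2, S100a3, S100a5, S100a7a and S100b outside the set, the FPKM were whole multiples of the value of 1 read within 0.005 reads in all 14 libraries, so that read numbers could be recovered. By the same steps, the relative depth of the untransfected libraries lay between 0.609 and 1.36 and that of the siRNA libraries between 1.26 and 2.201, with the first untreated EpH4 library set to 1. The untransfected libraries of a group were described by the study as biological replicates, and p-values measure the spread between them. Epithelial markers were expressed throughout (7 of 8 listed reached 1 FPKM in EpH4 cells, where Krt19 was at 0, with summed levels of 2678 to 3734 FPKM, and all 8 did in EpRas cells, 1733 to 3191 FPKM). Of 13 neutrophil and macrophage markers, 10 were in the tables and 2 (Csf1r and Cd68) reached 1 FPKM. Their summed level was 1.65 to 8.55 FPKM in EpH4 cells, 4.59 to 8.27 FPKM in EpRas cells and 3.31 to 11.6 FPKM in the siRNA libraries. Ptprc, Itgam, Csf3r, Elane, Fcgr3 and Cxcr2 stayed under 0.1 FPKM in each of the 14 libraries.

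The question of the first comparison was how Ras-transformed cells differ from their parental line. S100a4, known as metastasin, which binds the heavy chain of non-muscle myosin IIA and is commonly used as a mesenchymal marker, was higher in EpRas cells than in EpH4 cells by more than an order of magnitude. Its level was 138 and 135 FPKM in the untreated EpH4 libraries against 2970.4 and 2974 FPKM in those of EpRas. After TGF-β it was 79.3 and 71.9 FPKM in EpH4 cells against 964 and 1278 FPKM in EpRas cells. No EpRas library came near an EpH4 library, and replicates differed little except in EpRas cells with TGF-β (1121 ± 222 FPKM, SD, n = 2). The ratio of the means was 21.7 without TGF-β and 14.8 with TGF-β. In limma on log2(FPKM + 1) the log2 fold change was 4.43 ± 0.17 (SE, adjusted p = 1.21e-05) and 3.86 ± 0.17 (adjusted p = 1.63e-05), respectively, both libraries of EpRas lying above both libraries of EpH4. Since bulk RNA was measured, fewer cells of a type and less RNA per cell cannot be told apart in these values.

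S100a14, an S100 protein found mainly in epithelial tissues, went the other way. It was at 25.3 and 20.7 FPKM in untreated EpH4 cells and at 8.81 and 5.48 FPKM in untreated EpRas cells. After TGF-β it was at 5.65 and 7.24 FPKM in EpH4 cells and at 2.04 and 1.46 FPKM in EpRas cells. The lines did not overlap in either condition. The log2 fold change was -1.58 ± 0.25 without TGF-β (adjusted p = 0.00544 in limma) and -1.44 ± 0.25 with TGF-β (adjusted p = 0.00595). Leaving out the second EpH4 library with TGF-β moved the latter to -1.28 with an adjusted p of 0.0573. With 0.1 or 5 FPKM in place of 1 FPKM added before the logarithm, the change with TGF-β ranged from -1.83 to -0.76, and it passed the threshold with either.

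Of the 8 S100 genes that reached 5 FPKM in at least 1 untransfected library and were therefore tested, 1 was called higher (S100a4) and 1 lower (S100a14) in EpRas cells in each condition, which means an adjusted p under 0.05 in limma. Of all 9100 tested genes, 8.45% were called higher and 9.11% lower without TGF-β (17.6% in either direction), and 8.92% higher and 12.3% lower with TGF-β (21.3%). The median log2 fold change was 0.02 over the 8 genes and -0.00 over all genes without TGF-β, and -0.25 and -0.01 with TGF-β. S100a8 and S100a9 were not tested. Of the 8 epithelial markers, 1 was called higher and 4 lower in EpRas cells without TGF-β, and 1 higher and 5 lower with TGF-β. Fibroblast markers summed to 23.6 to 249.3 FPKM in EpH4 cells and 927 to 1169 FPKM in EpRas cells, 2 of the 4 tested being called higher and 2 lower without TGF-β and 1 higher and 3 lower with TGF-β, with Lum and Thy1 at 0 in all untransfected libraries. Nearly all of the EpRas sum was Vim (0.769 to 1.88 FPKM in EpH4 and 915 to 1156 FPKM in EpRas cells), and the other 8 fibroblast markers summed to 22.7 to 247 FPKM in EpH4 and 8.42 to 13.6 FPKM in EpRas cells. Basal or myoepithelial markers summed to 334 to 864 FPKM in EpH4 cells and 66.1 to 118 FPKM in EpRas cells, with 1 of 3 tested called higher and 2 lower without TGF-β and 0 higher and 3 lower with TGF-β, and Krt5, Myh11 and Oxtr under 0.1 FPKM throughout. Their part in the S100 values was not tested.

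The remaining tested genes did not pass the threshold. S100a13, which takes part in the release of Fgf1 and Il1a from cells, was at 12.9 and 20.5 FPKM in untreated EpH4 cells and at 25.6 and 26.3 FPKM in untreated EpRas cells, and at 19.3 and 18.5 against 22.4 and 38.3 FPKM with TGF-β. EpRas libraries lay above EpH4 libraries in both conditions, with log2 fold changes of 0.64 ± 0.29 (adjusted p = 0.174, limma) and 0.61 ± 0.29 (adjusted p = 0.178). S100a1, a calcium sensor best known from heart and skeletal muscle, was at 19.8 and 12.8 FPKM in untreated EpH4 cells and at 27.7 and 34.5 FPKM in untreated EpRas cells, without overlap (log2 fold change 0.92 ± 0.40, adjusted p = 0.164). With TGF-β the lines overlapped for S100a1 (15.97 and 19.9 FPKM against 22.1 and 8.64 FPKM). S100a16, a widely expressed member, was at 66.2 and 69.1 FPKM against 58.8 and 91.2 FPKM without TGF-β. With TGF-β it was lower in both EpRas libraries (34.4 and 31.8 FPKM) than in both EpH4 libraries (49.4 and 48.3 FPKM), at a log2 fold change of -0.55 ± 0.21 and an adjusted p of 0.11.

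For S100a6, S100a10 and S100a11, abundant in both lines, the libraries resolved no difference between the lines. S100a10, the partner of annexin A2 at the cell surface, was at 1622 and 1475 FPKM in untreated EpH4 cells and at 1676 and 1283 FPKM in untreated EpRas cells, a log2 fold change of -0.08 with a 95% interval from -0.72 to 0.56. Anxa2 was itself abundant, and the ratio of S100a10 to Anxa2 lay between 1.08 and 1.41 in all 8 untransfected libraries. S100a11, which binds annexin A1, was at 499 and 620 FPKM in EpH4 cells and at 501 and 509 FPKM in EpRas cells (95% interval of the log2 fold change from -0.59 to 0.32). S100a6, known as calcyclin, was at 1712 and 12005 FPKM in untreated EpH4 cells and at 9084 and 1804 FPKM in untreated EpRas cells. Without TGF-β replicates of S100a6 thus differed more than the lines did, and the 95% interval of its log2 fold change ran from -2.47 to 2.14. With TGF-β, S100a6 was at 3484 and 3114 FPKM in EpH4 cells and at 1689.9 and 2838 FPKM in EpRas cells, without overlap, at a log2 fold change of -0.59 that did not pass (95% interval from -2.90 to 1.72).

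**Figure D2:**
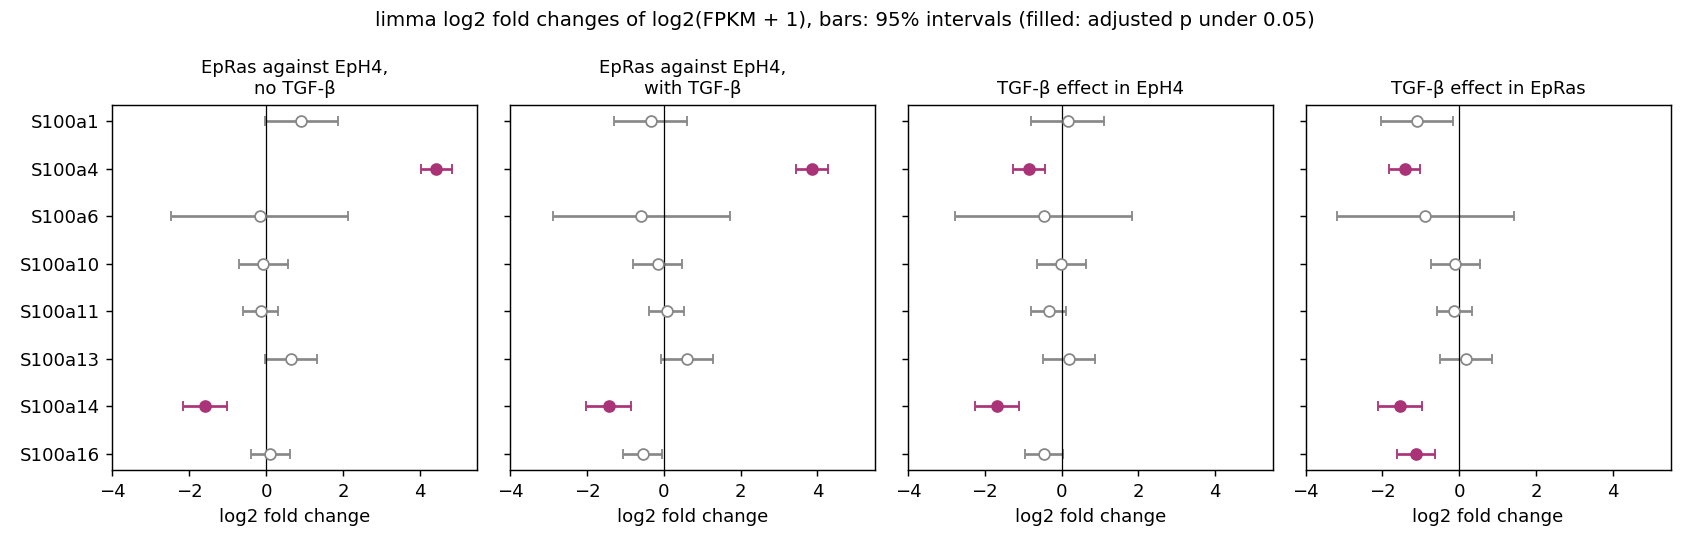
Log2 fold changes (horizontal axis) of the 8 tested S100 genes in 4 comparisons, with 95% intervals from limma on log2(FPKM + 1) over 8 libraries. Filled points have an adjusted p under 0.05 over all 9100 genes. S100a4 lies to the right in both comparisons of the lines and to the left in both comparisons with TGF-β, S100a14 lies to the left in all 4, and the interval of S100a6 is the widest in each panel.

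The second question was what TGF-β does to these genes in each line. S100a4 fell in both, in EpH4 cells from 137 ± 1.74 to 75.6 ± 5.19 FPKM (SD, n = 2; log2 fold change -0.85 ± 0.17, adjusted p = 0.0252 in limma) and in EpRas cells from 2972 ± 2.33 to 1121 ± 222 FPKM (log2 fold change -1.42 ± 0.17, adjusted p = 0.00541). The treated libraries of each line lay below the untreated ones. S100a14 also fell in both lines, by 1.69 ± 0.25 on the log2 scale in EpH4 cells (adjusted p = 0.00645) and by 1.55 ± 0.25 in EpRas cells (adjusted p = 0.0164). S100a16 fell in EpRas cells, from 58.8 and 91.2 FPKM to 34.4 and 31.8 FPKM (log2 fold change -1.13 ± 0.21, adjusted p = 0.0334). In EpH4 cells S100a16 was also lower in both treated libraries, at a log2 fold change of -0.46 ± 0.21 that did not pass (adjusted p = 0.243).

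In all, 0 of 8 tested S100 genes were called higher and 2 lower in EpH4 cells, where 6.48% of all tested genes were called higher and 2.91% lower (9.4% in either direction). In EpRas cells 0 were called higher and 3 lower, beside 1.9% and 1.92% of all tested genes (3.82%). Of the 8 genes, 6 had a negative log2 fold change in EpH4 cells and 7 in EpRas cells, with medians of -0.40 and -0.99 beside -0.02 and -0.02 over all genes. In EpH4 cells 2 of 3 basal markers (Acta2 and Krt14), 3 of 4 fibroblast markers (Col1a1, Col1a2 and Pdgfrb), 1 of 8 epithelial markers (Cdh1) and 1 of 2 myeloid markers (Csf1r) were called higher with TGF-β, and none lower. In EpRas cells Krt14 was called lower and no other marker was called. Their part in the S100 values was not tested. These comparisons share the untreated and treated libraries with those between the lines. The calls rest on 2 libraries per group: over the main setting and its alternatives, S100a4 in EpH4 cells passed in 11 of 18 (adjusted p from 0.0111 to 0.183), S100a16 in EpRas cells in 7 of 18 (0.023 to 0.238), S100a14 in EpRas cells in 13 of 17 (0.0137 to 0.142) and S100a4 in EpRas cells in 15 of 18 (0.00364 to 0.0967), all with a negative sign. Leaving out any 1 of the 4 EpH4 or the 2 untreated EpRas libraries ended the call of S100a4 in EpH4 cells, and leaving out the first untreated or the first treated EpH4 library that of S100a14. In EpRas cells the call of S100a4 ended without either untreated library, that of S100a14 without the first untreated or either treated library, and that of S100a16 without any 1 library other than the first untreated EpRas library. When the fit held only the EpRas libraries, none of the 3 genes was called in EpRas cells, beside 15 lower and 30 higher over all genes.

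A test of the difference between the lines in their response to TGF-β called none of the 8 genes, adjusted or at an unadjusted p under 0.05 in limma, while 0.176% of all tested genes were called higher and 0.626% lower (0.802% in either direction). The smallest unadjusted p was 0.0514, for S100a4 (difference of log2 fold changes -0.57 ± 0.25, adjusted p = 0.462). For S100a16 it was -0.66 ± 0.30 (adjusted p = 0.484) and for S100a1 -1.26 ± 0.57 (adjusted p = 0.484). S100a1 stood at 27.7 and 34.5 FPKM without and 22.1 and 8.64 FPKM with TGF-β in EpRas cells, the last library being far below its replicate. S100a6 had log2 fold changes with TGF-β of -0.46 in EpH4 and -0.89 in EpRas cells, each with an SE of 0.98. S100a10, S100a11 and S100a13 had log2 fold changes between -0.34 and 0.20 in both lines.

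Among S100 genes outside the 10, 2 of 7 listed were tested. S100a7a, the mouse relative of psoriasin, was at 1.58 and 5.82 FPKM in untreated EpH4 cells and at 14.5 and 18.9 FPKM in untreated EpRas cells, a log2 fold change of 2.07 ± 0.43 (adjusted p = 0.0166 in limma). The treated libraries had 0.874 and 0.294 FPKM against 6.99 and 7.10 FPKM (log2 fold change 2.37 ± 0.43, adjusted p = 0.00744). S100a3, next to S100a4, was at 3.67 and 3.69 FPKM in untreated EpH4 cells and at 7.66 and 13.2 FPKM in untreated EpRas cells (log2 fold change 1.25 ± 0.26, adjusted p = 0.0162), and was called higher with TGF-β as well. S100a5, which lies between S100a4 and S100a6, was listed at 0 in all 4 EpH4 libraries. In the 4 EpRas libraries it lay between 0.652 and 2.58 FPKM, which is only 1 to 3 reads per library, and it was not tested. Thus S100a3, S100a4 and S100a7a were called higher in EpRas cells while S100a14, in the same cluster, was called lower. Of the fused-type S100 genes, Flg2, Hrnr, Rptn, Tchh, Tchhl1 and Crnn did not reach 5 FPKM in either table, and Flg was not analysed here.

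Of 16 genes for intracellular partners of S100 proteins, 10 were tested. Between the lines, 1 was called higher in EpRas cells without TGF-β (Anxa5, log2 fold change 0.59 ± 0.15, adjusted p = 0.0377 in limma) and 0 with TGF-β. With TGF-β, 3 of them were called higher in EpH4 cells, Myh9 (1.02 ± 0.19), Anxa5 (0.83 ± 0.15) and Anxa6 (0.64 ± 0.14). No partner passed the threshold in EpRas cells, where the log2 fold changes of these genes were 0.38 ± 0.19, 0.17 ± 0.15 and 0.42 ± 0.14 (adjusted p = 0.41, 0.687 and 0.191 in limma). The test of the difference between the lines called none of the 3 (adjusted p = 0.455, 0.327 and 0.731). Myh9 encodes the myosin heavy chain that S100a4 binds. It was at 166 and 194 FPKM in untreated EpH4 cells and at 398 and 336 FPKM in treated ones, while S100a4 moved in the opposite direction in the same libraries.

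Of 9 receptors and cell surface partners, 4 were tested. Mcam, a cell adhesion molecule reported as a receptor of S100A8/A9, rose with TGF-β in both lines, from 6.14 and 6.67 to 82.3 and 81.5 FPKM in EpH4 cells and from 3.01 and 3.52 to 16.7 and 16.4 FPKM in EpRas cells. It is the 1 of the 4 for which the response to TGF-β was called different between the lines (-1.44 ± 0.20, adjusted p = 0.0274 in limma). Between the lines, Mcam was called lower in EpRas cells without TGF-β (-0.80, adjusted p = 0.0096) and with it (-2.24, adjusted p = 6.6e-05). Fgfr1 was called higher in EpRas than in EpH4 cells without TGF-β (0.96 ± 0.20, adjusted p = 0.019) and higher with TGF-β in EpH4 cells (1.04 ± 0.20, adjusted p = 0.0216). Tlr4 did not exceed 4.62 FPKM and Ager 0.478 FPKM in the untransfected libraries. Of 7 inflammatory genes often seen with S100a8, 5 were tested. Those called in EpRas against EpH4 cells were lower, 3 without TGF-β (Cxcl5, Cxcl1 and Tnfaip3) and 4 with TGF-β (Lcn2, Tnfaip3, Cxcl5 and Nfkbia). With TGF-β, Cxcl5 was called lower in both lines, Lcn2 lower in EpRas cells and Nfkbia higher in EpH4 cells. Cxcl5, a neutrophil attractant, was at 66.1 and 50.0 FPKM in untreated EpH4 cells and at 4.81 and 7.24 FPKM in untreated EpRas cells.

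The genes whose log2(FPKM + 1) followed that of S100a4 most closely over the 8 untransfected libraries were Adcy3 (r = 0.994), Rgl1 (0.992), Scd1 (0.992), Cbx6 (0.991) and St3gal1 (0.990). These are descriptive values over 8 libraries of 4 groups, which share the same line and treatment labels and depths. Adcy3 ran from 0.229 to 5.496 FPKM and Scd1 from 21.4 to 73.1 FPKM over these libraries, both far below S100a4 in EpRas cells. No such list was made for S100a8 in these libraries, since it held 0 or 1 read in each.

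The third question was what changes when Etv4 and Etv5 are knocked down in EpRas cells. Etv4 was at 57.4 FPKM in the untreated siNC library and at 11.6 and 27.9 FPKM with siRNA pairs 1 and 2, and TGF-β-treated libraries had 64.3, 12.6 and 18.9 FPKM in the same order. For Etv5 the values were 8.85, 1.61 and 1.26 FPKM in untreated libraries, and the treated ones had 5.34, 1.24 and 1.20 FPKM. Pair 1 thus left 20.2 and 19.6% of Etv4 and pair 2 left 48.5 and 29.4%. There was 1 library per condition, so no difference in this table has a replicate check.

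S100a8, which with S100a9 forms calprotectin, a product of neutrophils and of stressed epithelium, had the largest difference of the 10 genes. It was at 44.5 FPKM (63 reads) with siNC, at 0.520 FPKM (1 read) with pair 1 and at 6.10 FPKM (11 reads) with pair 2 in the absence of TGF-β. With TGF-β it was at 12.98 FPKM (32 reads) with siNC, at 0 (0 reads) with pair 1 and at 1.14 FPKM (2 reads) with pair 2. Both siNC libraries lay above all 4 knockdown libraries, and pair 1 lay below pair 2 in either condition.

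Relative to siNC, S100a8 with pair 1 was at 1.17% (95% exact interval from 0.0291 to 6.75%) and with pair 2 at 13.7% (6.52 to 26.3%) without TGF-β. With TGF-β pair 1 was at 0% (0 to 15.4%) and pair 2 at 8.80% of siNC (1.02 to 34.5%). The intervals cover counting error only. The mean of the pairs minus siNC was -3.40 without and -3.15 with TGF-β in log2(FPKM + 1). With 0.1 or 5 FPKM in place of 1 FPKM added, the latter became -4.29 and -1.69. TGF-β itself went with a lower S100a8 level in siNC cells, 29.2% of the untreated library (18.5 to 45.4%).

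**Figure D3:**
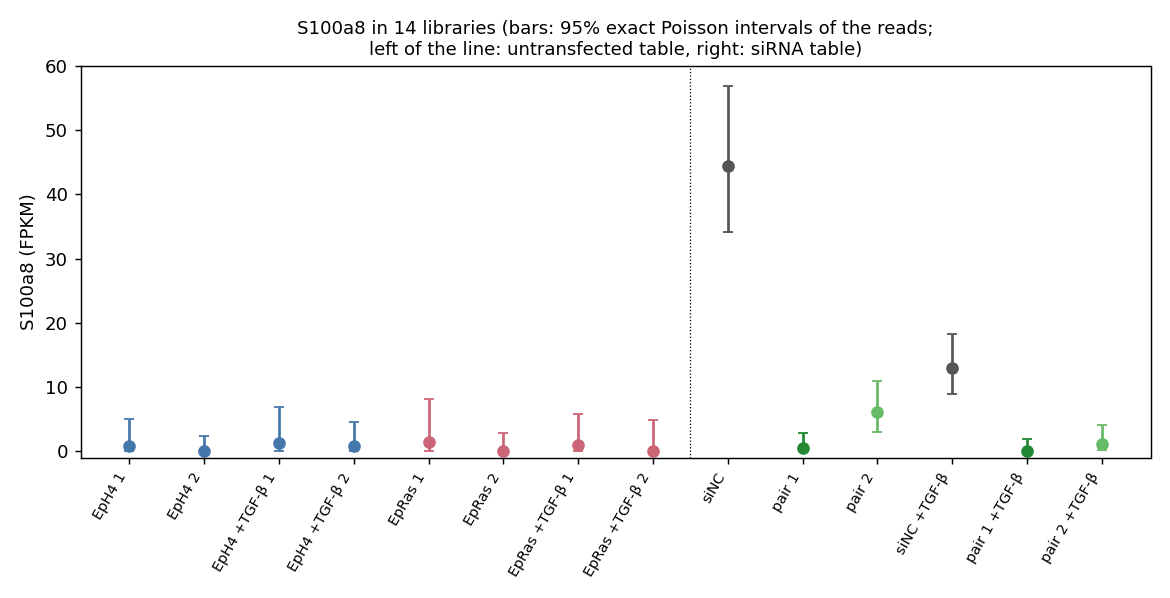
S100a8 expression (FPKM, vertical axis) in each of the 14 libraries with 95% exact Poisson intervals of its recovered reads. The siNC library without TGF-β stands at 44.5 FPKM and the one with TGF-β at 12.98 FPKM, and the other 12 libraries lie between 0 and 6.10 FPKM.

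S100a9 was listed at 0.470 FPKM in the siNC library without TGF-β and at 0 in the other 5, so its transcript was near the limit of detection where that of its partner S100a8 was highest. In untransfected EpRas cells, from the other table, S100a8 had 1 and 0 reads (1.47 and 0 FPKM) without TGF-β and likewise 1 and 0 reads (1.04 and 0 FPKM) after treatment. The siNC libraries thus had more S100a8 reads than any untransfected library, and the knockdown libraries of pair 1 had as few. Transfection, the sequencing and the separate normalization of the tables cannot be told apart here, and no test was made across tables. The neutrophil and macrophage markers summed to the low levels given above in the siRNA libraries. The 2 that reached 5 FPKM there, Cd68 and Csf1r, were lower with both pairs than with siNC. By the mean of the pairs in log2(FPKM + 1), neither was 2-fold lower. On plain FPKM, however, Cd68 with TGF-β was more than 2-fold lower by that mean. In the order siNC, pair 1 and pair 2, Cd68 had 5.17, 2.83 and 3.94 FPKM without and 6.52, 2.18 and 3.37 FPKM with TGF-β. Csf1r had 1.28, 0.459 and 1.07 FPKM without and 5.01, 2.92 and 3.62 FPKM with TGF-β. Their part in the S100a8 values was not tested.

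S100a13 was the second gene at least 2-fold lower in the absence of TGF-β. It was at 95.9 FPKM (366 reads) with siNC, at 22.8 FPKM (118 reads) with pair 1 and at 34.2 FPKM (166 reads) with pair 2, or 23.7% (19.1 to 29.3%) and 35.7% (29.5 to 42.9%) of siNC. In treated cells it was at 56.9, 18.1 and 54.9 FPKM, so that pair 1 was at 31.7% (25.1 to 39.8%) and pair 2 at 96.4% (82.0 to 113%) of siNC. The lower level with pair 2 was therefore seen without TGF-β and not with it. S100a1, which shares the stretch between the 2 starts with S100a13, was at 98.6 FPKM with siNC and at 34.7% (28.3 to 42.5%) and 71.9% (60.8 to 84.9%) of that with pairs 1 and 2. With TGF-β S100a1 was at 73.1% (59.4 to 89.7%) and 102% (83.7 to 123%) of 48.4 FPKM. As with S100a8, S100a1 and S100a13 were higher in the siNC library without TGF-β than in any untransfected EpRas library. There S100a1 did not exceed 34.5 FPKM and S100a13 did not exceed 38.3 FPKM. Other siRNA libraries also passed these levels. For S100a1 this held in all of them except pair 1 without TGF-β (34.3 FPKM). For S100a13 it held with siNC and pair 2 under TGF-β, and not in the remaining knockdown libraries.

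**Figure D4:**
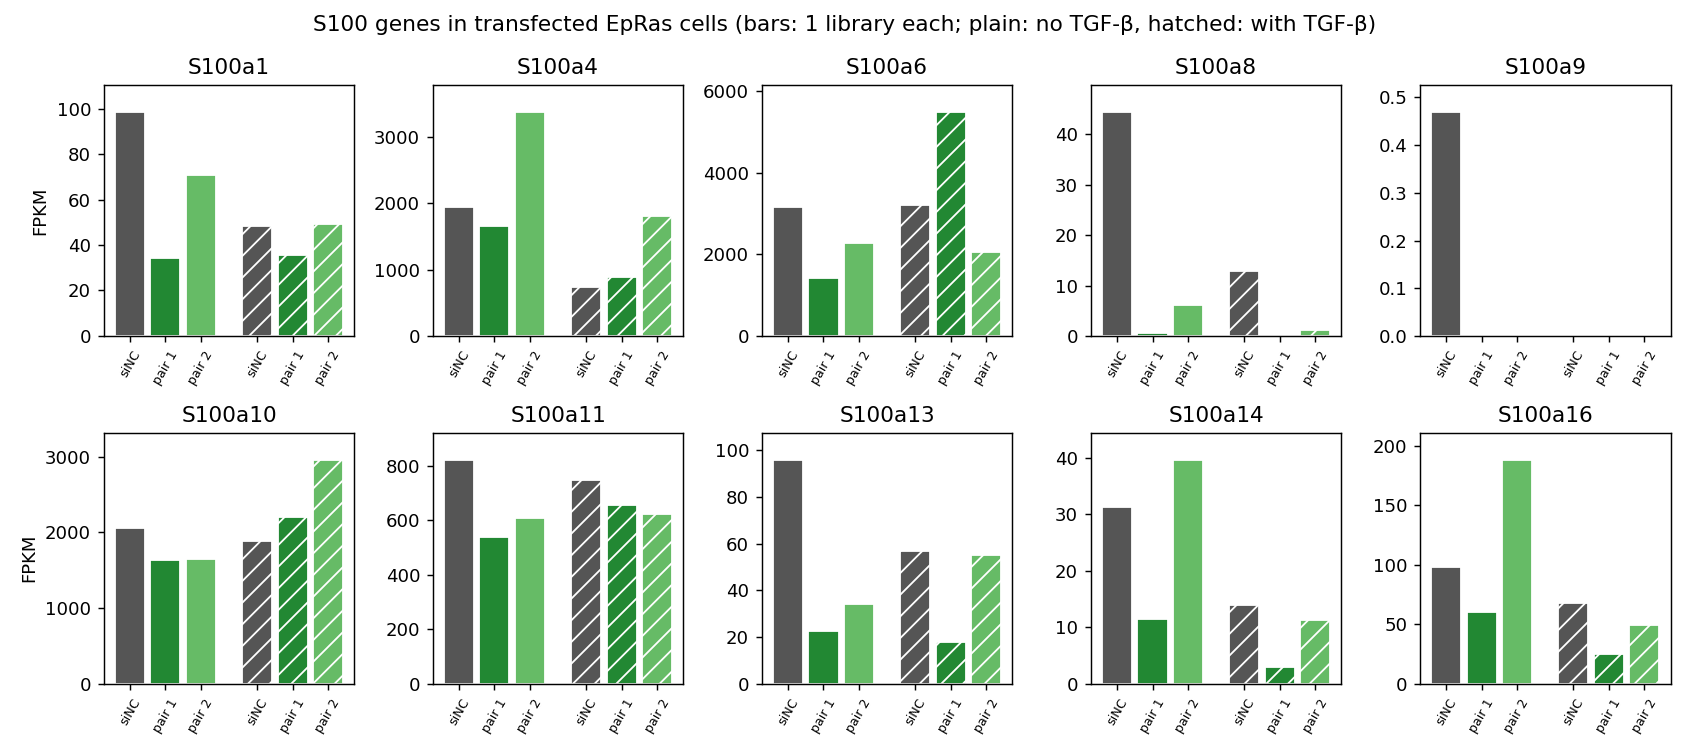
FPKM (linear axes from 0, one scale per gene) of the 10 S100 genes in EpRas cells transfected with siNC (grey), siRNA pair 1 (dark green) or pair 2 (light green), without (plain) and with TGF-β (hatched). Each bar is 1 library. S100a8 is highest in both siNC libraries, S100a13 is lowest with pair 1 in both conditions, and S100a4 is highest with pair 2 in both conditions.

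The pairs went opposite ways for S100a14, S100a16 and S100a4 without TGF-β. S100a14 had 31.3 FPKM in siNC cells against 11.5 with pair 1 and 39.7 with pair 2. S100a16 was at 98.3, 60.4 and 188 FPKM, or 61.4% (54.6 to 69.1%) and 192% (175 to 211%) of siNC. S100a4 was at 1945, 1661 and 3376 FPKM. With TGF-β, S100a14 (13.9, 3.01 and 11.3 FPKM) and S100a16 (68.0, 24.98 and 49.4 FPKM) were lower with both pairs, and S100a4 (734, 889 and 1802 FPKM) was higher with both. The level of S100a4 with pair 2 was 174 and 246% of siNC without and with TGF-β, against 85.4 and 121% with pair 1. S100a4 thus did not follow S100a8.

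Of the abundant members, S100a10 and S100a11 stayed within 2-fold of siNC in all 4 knockdown libraries, and S100a6 did not. In the order siNC, pair 1 and pair 2, S100a10 had 2060, 1629 and 1654 FPKM without TGF-β, and 1885, 2199.9 and 2962 FPKM after treatment. S100a11 was at 822, 539 and 609.6 FPKM and at 749, 655 and 622 FPKM, lower than siNC with both pairs in both conditions. S100a6 was at 3174, 1427 and 2282 FPKM without and at 3220.5, 5499.7 and 2066 FPKM with TGF-β, so the pairs disagreed in direction with TGF-β. A spread of this size was also seen between untransfected replicates of S100a6.

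Counted over the 9 S100 genes that reached 5 FPKM in at least 1 siRNA library, 2 (S100a8 and S100a13) were at least 2-fold lower and 0 higher without TGF-β, and 1 (S100a8) lower and 0 higher with TGF-β, by the mean of both pairs. Over all 9094 genes with this level 3.65% were lower and 3.46% higher without TGF-β, and 3.71% lower and 2.85% higher with TGF-β. Since the genes were chosen with this contrast in view, nothing is read from these counts. Just inside the limit was S100a13 (-1.72) and just outside it S100a1 (-0.89) without TGF-β, and S100a8 (-3.15) and S100a14 (-0.87) with TGF-β. By pair 1 alone the lower counts without and with TGF-β were 5 and 4, beside 414 and 500 of all 9094 genes. By pair 2 alone they were 2 and 1, beside 437 and 362 of all genes, with S100a4 at least 2-fold higher with TGF-β. By the mean of the pairs 332 and 337 of all genes were lower.

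Among the neighbours in the cluster, S100a7a, the S100 gene next to S100a8, was at 51.6 FPKM with siNC, at 13.6 FPKM (26.3%, 19.9 to 34.5%) with pair 1 and at 25.9 FPKM (50.1%, 39.99 to 62.7%) with pair 2 without TGF-β. The treated libraries had 15.5, 3.62 and 3.23 FPKM. S100a3 was at 17.1, 14.9 and 16.6 FPKM without and at 12.7, 5.35 and 5.54 FPKM with TGF-β. S100a2, named here after its values were seen, had 3 reads with siNC without TGF-β and 0 or 1 in the other 5 libraries. S100a4 and S100a6, which lie between S100a13 and S100a8, had mean differences of 0.37 and -0.78 without TGF-β. Lce1g, Lce1h and Sprr1a, epidermal genes between the clusters named here after their values were seen, were also higher with siNC than with either pair. In the order siNC, pair 1 and pair 2 without TGF-β, Lce1g had 315, 51.0 and 51.8 FPKM, Lce1h had 77.6, 6.48 and 2.10 FPKM and Sprr1a had 18.5, 0 and 0 FPKM. With TGF-β, Lce1g had 634, 255 and 201 FPKM, Lce1h had 133, 46.2 and 27.8 FPKM and Sprr1a had 1.05, 0 and 0 FPKM. In siNC cells, Lce1g and Lce1h were thus higher with TGF-β, while Sprr1a, like S100a8, was lower. In untransfected EpRas cells without TGF-β, Lce1g had 48.5 and 34.6 FPKM, Lce1h had 13.8 and 14.9 FPKM and Sprr1a had 0 and 0.255 FPKM. S100a7a had 14.5 and 18.9 FPKM there. These genes, like S100a8, thus stood higher in the untreated siNC library than in untransfected EpRas cells, and no test was made across tables.

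**Figure D5:**
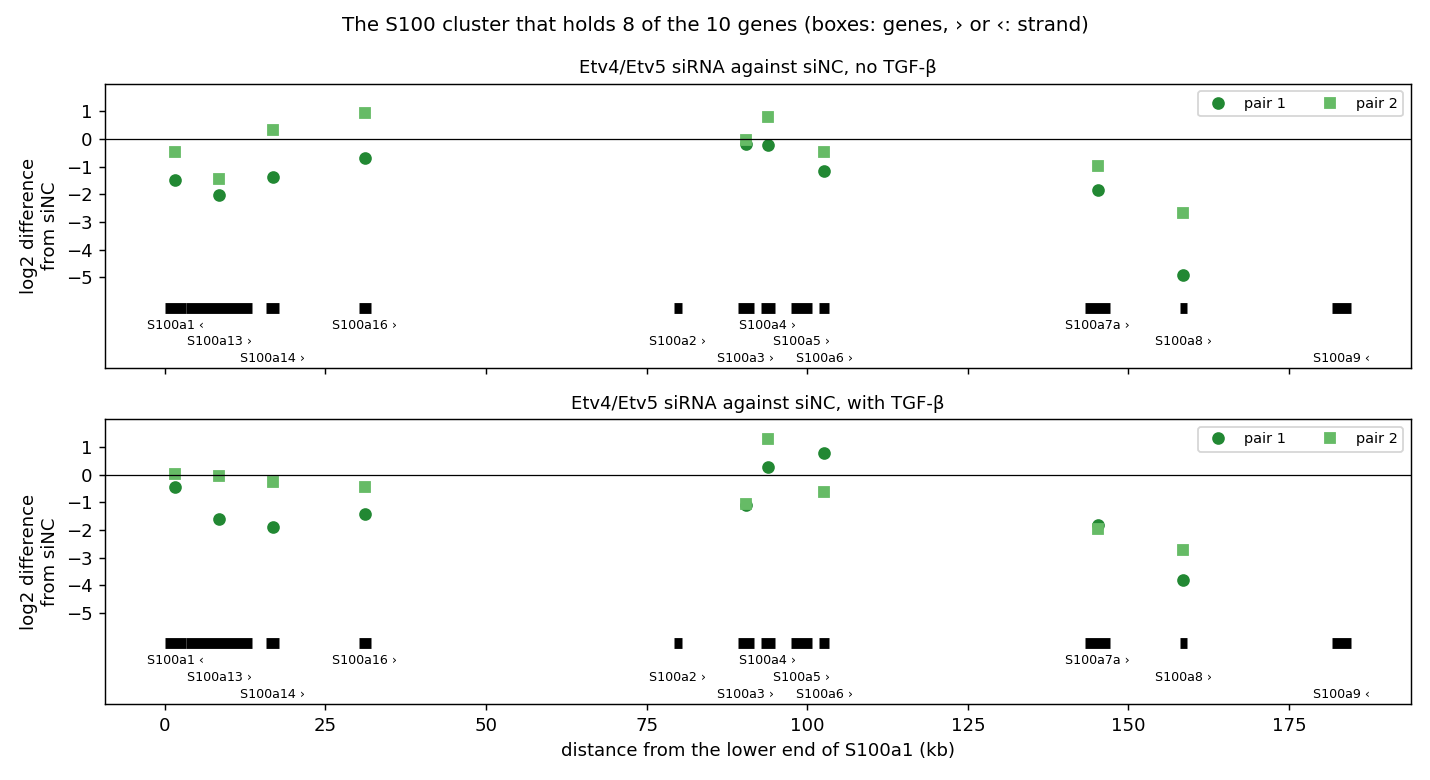
The S100 cluster drawn to scale (horizontal axis, distance in kb from the lower end of S100a1), with the log2 difference of FPKM + 1 from siNC (vertical axis) for siRNA pair 1 (circles) and pair 2 (squares), without TGF-β (top) and with TGF-β (bottom). Genes that did not reach 5 FPKM carry no points. S100a8, at 158 kb, has the lowest points in both panels. S100a1, S100a3, S100a6, S100a7a and S100a13 also lie below 0 for both pairs without TGF-β.

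The response to TGF-β in transfected cells is given for each arm as a description, and the arms were not compared. In the siNC libraries 8 of 9 genes were lower with TGF-β and 4 of them at least 2-fold (S100a1, S100a4, S100a8 and S100a14), while 2.51% of all genes were lower and 3.23% higher by that limit. S100a10 and S100a11 counted among the 8 at only -0.13 and -0.14, and with 5 FPKM added 2 genes (S100a4 and S100a8) passed the limit. With pair 1 it was 5 of 9, among them S100a8 at 1 read against 0 reads. Of these, 2 were at least 2-fold lower (S100a14 and S100a16), beside 3.25% of all genes lower and 3.67% higher. With pair 2 it was 6 of 9, 3 at least 2-fold (S100a8, S100a14 and S100a16), beside 3.21% lower and 4.08% higher. S100a8 had 11 reads without and 2 reads with TGF-β there, and with 5 FPKM added it changed by -0.85, short of 2-fold. The largest change with pair 1 was that of S100a6, which was higher with TGF-β by 1.95 on the log2 scale (1427 against 5499.7 FPKM). S100a4 changed by -1.41 on the log2 scale with siNC, -0.90 with pair 1 and -0.91 with pair 2. S100a14 changed by -1.12, -1.65 and -1.73 and S100a16 by -0.53, -1.24 and -1.91 in the same order. S100a13 was lower with TGF-β in siNC cells (59.4%, 51.3 to 68.7%) and higher in pair 2 cells (161%, 132 to 196%). S100a10 changed by -0.13 with siNC, 0.43 with pair 1 and 0.84 with pair 2.

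Of the 11 intracellular partners that reached 5 FPKM in the siRNA libraries, none differed by 2-fold without TGF-β, while Anxa11 was lower and Anxa6 higher with TGF-β. Of the 5 receptors, Mcam was at least 2-fold higher under knockdown in both conditions, by the mean of the pairs, at 1.75, 8.62 and 1.57 FPKM without TGF-β and 6.96, 61.7 and 27.6 FPKM with TGF-β, in the order siNC, pair 1 and pair 2. Pair 2 alone lay below siNC for Mcam without TGF-β. Of 3 inflammatory genes, Cxcl5 was lower in both conditions (43.2, 16.6 and 9.25 FPKM without TGF-β). The 8 epithelial markers did not differ by 2-fold by the mean of the pairs. Acta2 and Krt14 of 3 basal markers were at least 2-fold higher without TGF-β, by the mean of the pairs, and Acta2 and Tagln with TGF-β, and Col1a1 and Pdgfrb of 4 fibroblast markers were higher in both. Without TGF-β the mean of Acta2 rested on pair 1 (0.512, 23.4 and 0.201 FPKM for siNC, pair 1 and pair 2). The summed levels over the siRNA libraries were 110 to 464 FPKM for basal and 477 to 789 FPKM for fibroblast markers (5.504 to 43.9 FPKM without Vim), with Lum and Thy1 at 0, and their part in the S100 values was not tested.

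Over the 6 siRNA libraries, the genes whose log2(FPKM + 1) was most like that of S100a8 were Tubb2a (r = 0.992), Siglec15 (0.990), Trib1 (0.990), Slc23a2 (0.989) and Bcar3 (0.987). Siglec15, for example, had 9.92, 0.599 and 2.69 FPKM for siNC, pair 1 and pair 2 without TGF-β, and 6.26, 0.236 and 0.658 FPKM with TGF-β. For S100a4 they were Wdr34 (0.991), Rpl14 (0.989), Ebp (0.987), Smarcd2 (0.979) and 1700040I03Rik (0.977), a list that shares no gene with that over the untransfected libraries. With 6 libraries and 9094 genes compared, high values of r are common, and they are given as a description.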

How the data were processed

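The authors purified polyadenylated RNA, sequenced directional libraries on the Ion Proton, aligned reads to mm10 with TopHat2 2.0.11 and Bowtie2 2.2.2.2 and quantified genes with Cuffdiff (Cufflinks 2.2.0), per the labels and the submitters' processing notes. The 2 deposited tables hold FPKM for each gene and library with Cuffdiff's interval, and come from separate runs, and each test stayed inside one of them. No per-sample column was left unused (0). Read depth is not given in the tables. Read numbers were therefore recovered for genes whose FPKM were whole multiples of 1 read within 0.005 reads in all 14 libraries. On genes simulated as whole reads at the same relative depths, 400 of 400 accepted steps were true. The simulation checks the search alone, since it takes whole reads and these depths as given.

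From these FPKM, log2(FPKM + 1) was compared with limma 3.58.1 in R 4.3.3 over the 8 untransfected libraries, with 1 mean per group, for the 9100 genes with an OK status and at least 5 FPKM in 1 library, with Benjamini-Hochberg adjustment across the whole set. In simulated data for EpRas against EpH4 cells without TGF-β, on 9100 genes, 24 of 100 genes changed 2-fold and 94 of 100 changed 4-fold were called, as were 8 unchanged genes. siRNA values were compared as log2 differences of FPKM + 1 between the mean of the pairs and siNC, with a limit of 2-fold, without a test. Intervals of ratios of reads are exact (Clopper-Pearson, from scipy), and those of single levels exact Poisson. Every one of the 10 S100 genes is described. Genes of other lists, apart from the cell type markers, are named where they passed the threshold (at most 4 per list and comparison, the largest changes first). The markers are given by counts and sums, and only some are named. Neighbours in the cluster and the 5 genes most like S100a4 or S100a8 are also named. The genes and lists were chosen with earlier results of these data known. Upstream sequences are from RefSeq on GRCm38.p6. Alternatives were the number added before the logarithm, the filter, the groups in the fit, the scaling, the variance prior, a replicate block, the siRNA pair and each library left out.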

Additional observations from a re-analysis of the deposited data

How the results depend on the processing

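Each result rests on 2 libraries per group, or on 1 in the siRNA table, and Cuffdiff's FPKM hold no depth from which a count test could be made for all genes. The difference of S100a4 between the lines passed the threshold in 18 of 18 settings in both conditions and that of S100a14 in 17 of 17 without and 16 of 17 with TGF-β. With a filter of a mean of at least 10 FPKM, S100a14 left the test, so that 0 members were called lower between the lines in either condition and 1 was called lower with TGF-β in EpH4 cells. When the fit held no other groups, 0 were called lower with TGF-β in EpRas cells (adjusted p of 0.0967 for S100a4, 0.142 for S100a14 and 0.238 for S100a16 in limma), while the calls over all genes went from 175 to 15 lower and from 173 to 30 higher. In the same comparison, S100a16 alone missed the threshold without a filter (0.0534) and after quantile normalization (0.0514).

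With the replicate number as a block, 1 member was called lower with TGF-β in EpH4 cells, S100a4 missing the threshold (adjusted p = 0.0591 in limma), and S100a16 was not called in EpRas cells (0.0667), while the lower calls over all genes went from 265 to 141 and from 175 to 107. The deviations of same-numbered libraries from their group means had correlations from -0.35 to 0.08. With 2 libraries per group, a negative value means that libraries of opposite number deviated together. The check therefore cannot tell whether libraries shared a batch under other numbers, which was not tested.

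After quantile normalization the log2 fold change of S100a10 turned to 0.11 with TGF-β in EpH4 cells and 0.13 in EpRas cells, and its difference between the lines to 0.019. With 0.1 FPKM added, that difference turned to -0.13 for S100a14. By pair 1 alone 5 members were at least 2-fold lower without TGF-β (S100a1, S100a6, S100a8, S100a13 and S100a14) and 4 with TGF-β (S100a8, S100a13, S100a14 and S100a16), beside 414 and 500 of all 9094 genes in place of 332 and 337 by the mean of the pairs. By pair 2 alone 1 was higher with TGF-β (S100a4), beside 262 of all genes in place of 259. With 5 FPKM added, 2 members were at least 2-fold lower with TGF-β in the siNC libraries (S100a4 and S100a8). In the libraries of pair 2, S100a8 then changed by -0.85 with TGF-β, short of 2-fold. The cause of these changes was not tested.

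Leaving out each library in turn, the number of members called higher in EpRas cells without TGF-β ran from 1 to 2 (S100a1 was added without either EpRas library with TGF-β), and that called lower with TGF-β from 0 to 2 (S100a14 was lost without the second EpH4 library with TGF-β, and S100a16 was added without either untreated EpRas library). The number called lower with TGF-β ran from 0 to 2 in EpH4 cells, where S100a4 was lost without any one of the 4 EpH4 or the 2 untreated EpRas libraries, and S100a14 without the first untreated or the first treated EpH4 library. In EpRas cells it ran from 1 to 2, with S100a16 alone left without the first untreated library, S100a14 alone without the second, and S100a4 alone without either treated library. Over all 9100 genes the same counts ran from 327 to 1001 (769 with all libraries), from 516 to 1392 (1123), from 56 to 374 (265) and from 54 to 198 (175), in this order.

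Log2 fold changes of uncalled members that changed sign ran, between the lines without TGF-β, from -0.27 to 0.12 for S100a10, -0.30 to 0.018 for S100a11, -0.20 to 0.43 for S100a16 and -1.57 to 1.24 for S100a6. With TGF-β they ran from -0.97 to 0.29 for S100a1, -0.56 to 0.24 for S100a10 and -0.14 to 0.28 for S100a11. For TGF-β in EpH4 cells they ran from -0.14 to 0.46 for S100a1, -0.087 to 0.063 for S100a10, -0.11 to 0.52 for S100a13 and -1.87 to 0.94 for S100a6. In EpRas cells they ran from -0.50 to 0.30 for S100a10, -0.34 to 0.078 for S100a11, -0.20 to 0.54 for S100a13 and -2.05 to 0.28 for S100a6. For the difference between the lines in this response they ran from -0.49 to 0.31 for S100a10, -0.40 to 0.34 for S100a13, -0.15 to 0.44 for S100a14 and -1.83 to 0.98 for S100a6.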
